A study of Mus musculus with 44 samples.

Results

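Among the 30 lungs of an intratracheal mouse lung cancer model, 10 came from mice that were given tumour cells and then recombinant human TIMP2 protein (rTIMP2), and these 10 lungs separated into 6 with a high level of the tumour cells' luciferase reporter transcript (Luc) and 4 with almost none. The 10 lungs are 10 of the 44 lung samples of the series. They were divided by 1 rule: a Luc value above 20 put a lung in the reporter-high set, and a value below 1 put it in the reporter-negative set. The reporter-high lungs were 2 wild-type (WT) and 4 Timp2-mutant (MT2) lungs, and the reporter-negative lungs were 3 WT and 1 MT2 lung. The sets were thus chosen by a measured value, the Luc signal, and differences between them are given as descriptions with no test. The tests were run in the 20 lungs that the rule did not use, 10 lungs with tumour cells and the vehicle HBSS and 10 tumour-free lungs, 5 of each genotype in each.

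TIMP2 belongs to the secreted proteins that block matrix metalloproteinases, the enzymes that cut collagens and other matrix proteins. The tumour cells were LL/2-Luc2, a line from the Lewis lung carcinoma that arose in C57BL/6 mice, which carries a luciferase gene, so that its RNA can be recognised in a mixed piece of lung. A carcinoma that grows in the lung brings the transcripts of dividing tumour cells, draws monocytes and fibroblasts, and takes the place of alveoli, airways and vessels. The reporter transcript is therefore a tag of tumour cells in a tissue piece, not a measure of the whole organ.

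All mice were C57BL6j, and each sample was the RNA with poly(A) tails from a piece of about 3 mm3 of lung. The treated mice received rTIMP2 by intraperitoneal injection at 200 µg per kg per day after cells were placed in the trachea. The HBSS tumour mice received the same cells and the vehicle. The lungs called tumour-free here have titles with only a genotype and a number, and their labels also carry the cell line. The name tumour-free is thus a reading of titles that name no treatment, and the titles do not state it. The genotype label reads wt or mutant Timp2 and gives no allele. Age, sex, day of collection and library batch are not given in the labels used here, and the tumour-free lungs are numbered apart from the lungs that received cells. In a piece of tissue, fewer cells of a type and less RNA per cell cannot be told apart. Values are the authors' normalized counts, where 1 unit stands for about 1 read, and the estimated depth was 12.3 to 15.4 M (mega) reads in the treated lungs and 10.7 to 17.1 M in all 30. Groups of 6 or 10 lungs are given below as their lowest, median and highest value, and the 4 reporter-negative lungs in the order WT replicates 2, 3 and 5 and MT2 replicate 2.

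Luc, which chose the sets, was 23.3, 53.1 and 75.5 in reporter-high lungs and 0, 0, 0 and 0.983 in reporter-negative lungs. The lowest reporter-high lung was WT replicate 1 at 23.3 and the highest reporter-negative lung was MT2 replicate 2 at 0.983, which stands for about 1 read. HBSS tumour lungs had 39.3, 56.3 and 70.9, and all 10 tumour-free lungs were at 0. The other marker given for the injected cells, Hmga2, an embryonic chromatin protein that many tumours switch on again, followed the reporter. Hmga2 was 1198, 3210.5 and 5299.5 in reporter-high lungs and 23.5, 32.1, 13.6 and 63.9 in reporter-negative lungs. It was 2212, 3989 and 5069.6 in HBSS tumour lungs and 9.52, 13.8 and 27.8 in tumour-free lungs, so that the reporter-high lungs lay around the HBSS tumour lungs and 2 of the 4 reporter-negative lungs lay above every tumour-free lung.

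Timp2 itself did not separate the sets. It was 5809, 7017 and 10119 in reporter-high lungs and 9998, 8046, 9685 and 5487 in reporter-negative lungs, and the sets overlapped. HBSS tumour lungs had 5753, 7213 and 11992 and tumour-free lungs 5948, 8192 and 11489, and over both genotypes they did not differ past the test (log2 fold change -0.07 ± 0.16 SE, limma adjusted p = 0.69). In MT2 lungs alone the sign was positive (log2 0.49, limma adjusted p = 0.029). The counts read the mouse transcript, so the injected human protein is not part of this value.

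**Figure D1:**
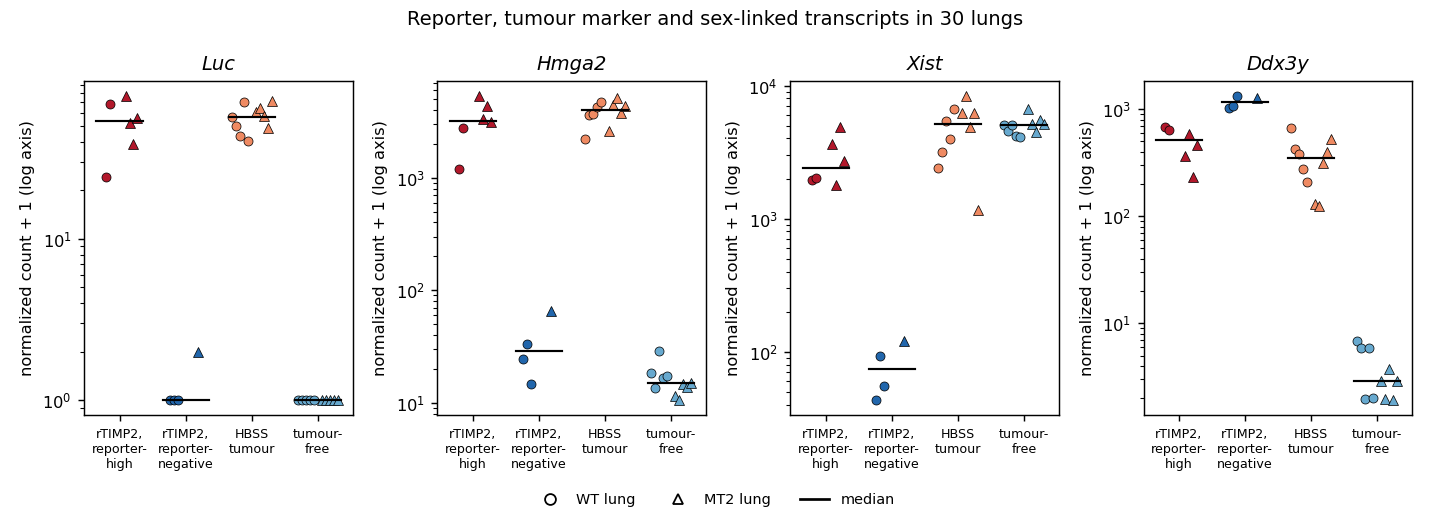
Normalized count plus 1 on a log axis for the reporter Luc, the tumour marker Hmga2 and the sex-linked genes Xist and Ddx3y in each of 30 lungs, with circles for WT, triangles for MT2 and a line at the median of each set. The 6 reporter-high lungs lie at or above 23.3 for Luc, the 4 reporter-negative lungs at or below 0.983, and the same 4 lungs have the lowest Xist values and the highest Ddx3y values.

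The 4 reporter-negative lungs also stood apart in sex-linked transcripts. Xist, the RNA that silences an X chromosome in female cells, was 1778, 2381 and 4843 in reporter-high lungs and 42.2, 92.4, 54.5 and 119 in reporter-negative lungs. It was 1153, 5156 and 8305 in HBSS tumour lungs and 4118, 5035 and 6657 in tumour-free lungs, so the reporter-negative lungs were below every other lung. Ddx3y, an RNA helicase encoded on the Y chromosome, was 234, 519 and 686 in reporter-high lungs and 1024, 1067, 1321 and 1265 in reporter-negative lungs. It was 123, 348 and 672 in HBSS tumour lungs and 0.910, 1.89 and 5.78 in tumour-free lungs. The further Y-linked genes Eif2s3y, Kdm5d and Uty had the same order, with Eif2s3y at 176 to 373 in reporter-high, 587 to 647 in reporter-negative, 101 to 412 in HBSS tumour and 0.970 to 3.85 in tumour-free lungs. Reporter-high and HBSS tumour lungs thus carried both Xist and Y-linked RNA, reporter-negative lungs carried Y-linked RNA with little Xist, and tumour-free lungs carried Xist with little Y-linked RNA. Since the 4 lungs without reporter RNA are also the 4 with little Xist, the 2 properties cannot be told apart among the treated lungs, and their part in the differences below was not tested.

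RNA of tissue outside the lung proper was high in 2 of the reporter-negative lungs. Krt13, a keratin of squamous epithelium such as that of the oesophagus, was 2.91, 64.4 and 104 in reporter-high lungs and 37274, 114425, 65.8 and 53.1 in reporter-negative lungs, with both high values in WT replicates 2 and 3 and the other 2 within the reporter-high range. It was 16.1, 61.1 and 22601 in HBSS tumour lungs and 0, 4.82 and 262 in tumour-free lungs. The 9 genes of the list of skeletal muscle, fat and squamous epithelium summed to 28.3 to 697.5 in reporter-high lungs and 720.5 to 352080 in reporter-negative lungs. Of the 8 that passed the filter on level, 3 were lower in reporter-high lungs with no overlap. Counts are therefore also given without WT replicates 2 and 3.

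Transcripts present in tumour-bearing and nearly absent from tumour-free lungs were chosen in the other 20 lungs and summed in each treated lung. Only Fosl1 and Rhox2d reached 200 in every HBSS tumour lung while staying at 5 or below in every tumour-free lung. Their sum was 467 to 1405 in reporter-high lungs and 9.51 to 12.3 in reporter-negative lungs, against 830 to 2061 in HBSS tumour lungs and 0 to 5.96 in tumour-free lungs. A longer list of 19 transcripts was chosen after the data were seen. It took genes at 100 or more in every HBSS lung and at least 20 times the highest tumour-free lung. Luc was left out, as were genes on chromosome Y, where these lungs also differ. Lrrc15, Thbs2 and Ccl2 from the fibroblast, matrix and chemokine lists are among the 19. Their sum was 39.5 to 108.7% of the HBSS median in reporter-high lungs and 0.885 to 3.05% in reporter-negative lungs, with 0.641 to 1.11% in tumour-free lungs. WT replicate 3 had the 3.05% and WT replicate 5, at 0.885%, lay within the tumour-free range.

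Over all 7355 genes that differed at least 2-fold between HBSS tumour and tumour-free lungs, each lung was placed on a scale with the tumour-free mean at 0 and the HBSS mean at 1. Unlike in the list of 19, Luc and genes on chromosome Y were not left out of this scale. The reporter-high lungs lay at 0.325 to 1.07 with a median of 0.891. WT replicate 1 gave the 0.325, and the other 5 lay at 0.819 or above. The reporter-negative lungs lay at 0.0177 to 0.145 with a median of 0.0614, and WT replicate 3 gave the highest value. HBSS tumour lungs ranged from 0.436 to 1.32, and the lowest of them was WT replicate 1, while tumour-free lungs ranged from -0.0202 to 0.0426. All reporter-negative lungs except WT replicate 5, at 0.0177, were above every tumour-free lung on this scale. The part of Y-linked RNA in these positions was not tested.

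**Figure D2:**
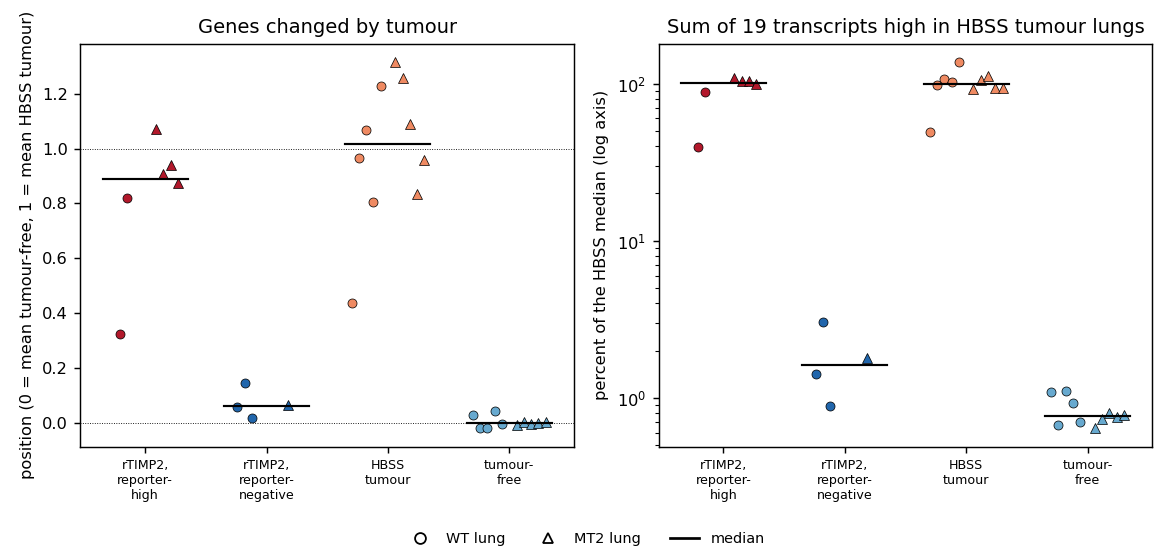
Left, position of each lung between the mean tumour-free lung (0) and the mean HBSS tumour lung (1) over 7355 genes, with Luc and Y-linked genes not left out. Right, sum of 19 transcripts that were high in HBSS tumour and low in tumour-free lungs, stromal genes among them, as a percent of the HBSS median, on a log axis. Circles are WT, triangles MT2 and lines medians. The reporter-high WT replicate 1 (0.325) lies between the sets, and the 4 reporter-negative lungs (0.0177 to 0.145) lie near the tumour-free lungs.

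Of 17265 genes that reached 10 in 4 or more treated lungs, 1720 (9.96%) were higher and 2231 (12.9%) lower in the reporter-high lungs, with no overlap between the 6 and the 4 lungs and mean log2(value + 1) values at least 1 apart. These shares are a background for the gene lists, and nothing is read from them, since the reporter chose the sets. Without the reporter-high WT replicate 1 the counts were 2870 higher and 4044 lower. Without the reporter-negative WT replicates 2 and 3 they were 2655 higher and 3619 lower. With every library scaled to the same sum, 2295 were higher and 1589 lower. The median of all genes moved to 0.055 on the log2 scale, against -0.051 as deposited. Fewer genes of some lists were then lower. For B, T and cytotoxic cells the counts were 8, 6 and 2, against 11, 9 and 4 as deposited. For fibroblasts and mural cells and for endothelium they were 4 and 1, against 7 and 2. For ciliated and alveolar type 1 cells they were 5 and 2, against 6 and 3. For the proteases and inhibitors the count was 3, against 7. Among MT2 lungs only, where a single reporter-negative lung is left, 3586 genes were higher and 4833 lower.

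The same question, tumour against no tumour, was tested in the 20 lungs outside the rule. The tumour-free lungs among them are also numbered apart and carry little Y-linked RNA, unlike every HBSS tumour lung. Tumour, cohort and sex-linked expression therefore cannot be told apart in this test, here and wherever its results are given. Between HBSS tumour and tumour-free lungs, 6148 of 16826 genes rose (36.5%) and 6991 fell (41.5%) by limma with genotype as a covariate, at a Benjamini-Hochberg adjusted p under 0.05. Of the 1720 genes higher in reporter-high lungs, 1606 rose in HBSS tumour lungs, which is 93.4% of the first list and 26.1% of the second. Of the 2231 genes lower in reporter-high lungs, 2083 fell in HBSS tumour lungs, which is 93.4% and 29.8%. No lung is shared by these comparisons, but both hold the same kind of tumour tissue. Across the 16696 genes measured in both, the difference between the sets had a Pearson r of 0.907 with the HBSS fold change and a slope of 0.755, given as a description because genes are not independent. The median difference over all genes was -0.05 between the sets and -0.07 between HBSS tumour and tumour-free lungs.

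**Figure D3:**
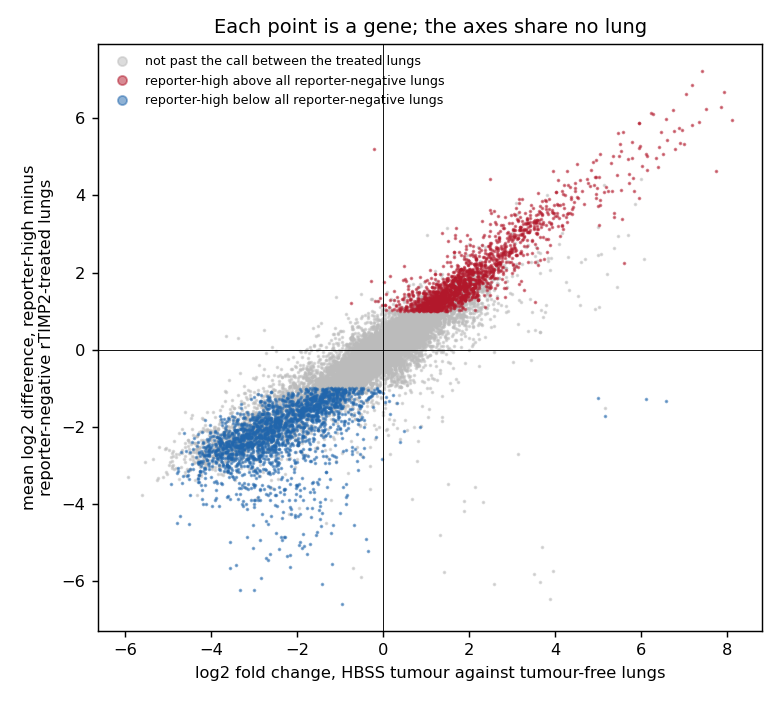
Each of 16696 genes by its log2 fold change between HBSS tumour and tumour-free lungs (horizontal) and its mean log2 difference between reporter-high and reporter-negative treated lungs (vertical). Red and blue mark genes whose 6 reporter-high lungs lie above or below all 4 reporter-negative lungs by at least 1 on average. Most points follow the diagonal, Xist stands alone at 5.20 on the vertical axis near 0 on the horizontal, and a group of muscle genes at the lower edge was much lower in reporter-high than in reporter-negative lungs, with log2 differences down to -6.61 for Ckm.

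Homeobox genes of the Rhox family, Hmga2, Lrrc15 and Fosl1 were among the 12 largest differences. Of the 13 measured genes of the tumour cell list, 10 were higher in reporter-high lungs and none lower by the no-overlap threshold, with a median difference of 3.85 on the log2 scale. In HBSS tumour lungs 10 of 12 rose and 1 fell. Rhox5, an X-linked homeobox gene of the reproductive tract and placenta, was 874, 2707 and 2802 in reporter-high lungs and 27.6, 24.1, 16.7 and 48.2 in reporter-negative lungs. It rose in HBSS tumour lungs to 1363, 3056 and 4176, against 3.79, 10.2 and 32.2 in tumour-free lungs (log2 7.87 ± 0.28 SE, limma adjusted p = 6.7e-15). Its neighbours in the same family, Rhox2g, Rhox2h and Rhox2d, differed by 7.24, 6.87 and 6.24 between the sets. These copies are near-identical, so how reads were divided between them is uncertain.

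Fosl1, a subunit of the AP-1 transcription factor, was 256, 458 and 1008 in reporter-high lungs and 5.41, 6.09, 6.69 and 9.40 in reporter-negative lungs. HBSS tumour lungs had 348, 808 and 1613 and tumour-free lungs 0, 2.53 and 4.25, so each reporter-negative lung was above the tumour-free lungs, by a few reads. Fosl1 is also 1 of the transcripts picked for low values in these same tumour-free lungs, which favours such a gap, and nothing is read from it. Plac1, a placental membrane protein, was 24.4 to 213 in reporter-high and 0 to 1.15 in reporter-negative lungs, and Lhx9, a LIM homeobox factor of the developing gonad and brain, was 30.4 to 121 and 0 to 1.97 in the same order. Lrrc15, a membrane protein known from activated fibroblasts, was 265, 776 and 1121 in reporter-high lungs and 11.3, 4.59, 9.40 and 8.85 in reporter-negative lungs. Hmga2, Gpr149, Xlr3c and Syt13 made up the rest of the 12 largest, and all 12 rose in HBSS tumour lungs. WT replicate 1 was the lowest of the 6 reporter-high lungs for all of them except Fosl1, at 874 for Rhox5 where the other 5 began at 2335. Lin28b, an embryonic regulator of the let-7 microRNAs, was 8.12 to 36.3 and 0 to 1.02 in the same order, close to the level of single reads.

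In the tumour cell list the keratins Krt8 and Krt18, which line normal airway and alveolar cells too, overlapped between the sets. Krt8 was 1387 to 3249 in reporter-high lungs and 2203 to 2995 in reporter-negative lungs. Mycn was 2.83 to 27.4 and 11.5 to 30.3 in the same order, and it was 0 to 16.4 in HBSS tumour lungs and 38.8 to 80.9 in tumour-free lungs.

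Genes of the cell division cycle were higher together in the reporter-high lungs. Of 22 listed genes, 21 were higher and none lower, with a median of 2.95, and all 22 rose in HBSS tumour lungs with a median of 2.93. Cdk1, the kinase that starts mitosis, was 287, 1067 and 1263 in reporter-high lungs and 46.0, 61.9, 32.4 and 62.9 in reporter-negative lungs, where tumour-free lungs had 26.2, 57.7 and 73.5. Its difference was 3.60 among WT lungs and 4.10 among MT2 lungs. Top2a, the topoisomerase of dividing cells, was 1042, 2153 and 2692 in reporter-high lungs and 194, 253, 120.1 and 278 in reporter-negative lungs. All 4 reporter-negative values of Top2a lay in the tumour-free range of 108 to 308. Pcna, the sliding clamp of DNA replication, did not overlap but differed by 0.97, just under the threshold. Of 20 genes of hypoxia and glycolysis Pkm, Slc2a1, Pgam1 and Eno1 were higher and none lower, against 9.96% and 12.9% of all genes. By the limma test, a different criterion, 17 of the 20 rose and 2 fell in HBSS tumour lungs. Pkm, pyruvate kinase, was 11009.8, 21703 and 26133 in reporter-high lungs and 6129.9, 10225, 4984 and 5968 in reporter-negative lungs, with its highest reporter-negative value in WT replicate 3.

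Matrix genes split into those that were higher with the reporter and those that were not. Of 26 listed genes, 9 were higher and 1, Ccn2, was lower in reporter-high lungs, against 9.96% and 12.9% of all genes, with a median of -0.32. Ccn2 no longer passed with libraries at the same sum. In HBSS tumour lungs 9 of the 26 rose and 14 fell, where 36.5% of all genes rose and 41.5% fell. The rising share is thus near that of all genes. Thbs2, thrombospondin 2, was 2189.5, 3603 and 5027 in reporter-high lungs and 79.8, 211, 73.1 and 60.0 in reporter-negative lungs. Col3a1, a fibrillar collagen chain, was 19599.9, 43012 and 51873 in reporter-high lungs and 2659, 7173, 2975 and 4088 in reporter-negative lungs. Fn1, fibronectin, was 18121, 25046 and 46852 and 4172, 5889, 4216 and 4009 in the same order, and both genes rose in HBSS tumour lungs (Col3a1 log2 2.62 ± 0.26 SE, limma adjusted p = 1.2e-08; Fn1 log2 2.22 ± 0.23 SE, adjusted p = 3.1e-08). Eln, the elastic fibre protein elastin, overlapped, at 575 to 1581 in reporter-high lungs and 778 to 1072 in reporter-negative lungs.

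The metalloproteinases, which TIMP proteins inhibit, differed in both directions. Of 28 measured genes of proteases and inhibitors, 6 were higher and 7 lower, against 9.96% and 12.9% of all genes. In HBSS tumour lungs 12 of the 28 rose and 11 fell, near the 36.5% and 41.5% of all genes. Mmp14, the membrane-bound enzyme that activates the gelatinase Mmp2 together with TIMP2, was 2209.8, 4342 and 6420.3 in reporter-high lungs and 516, 516, 515 and 639 in reporter-negative lungs. Mmp2 went the other way, at 128, 211 and 683 in reporter-high lungs and 709, 864, 819.5 and 807 in reporter-negative lungs, where tumour-free lungs had 1177, 1956 and 2575. In HBSS tumour lungs Mmp14 rose (log2 2.46 ± 0.16 SE, limma adjusted p = 2.9e-11) and Mmp2 fell (log2 -3.49 ± 0.30 SE, adjusted p = 1.9e-09). Mmp12 and Mmp13, the macrophage elastase and a collagenase, were higher in reporter-high lungs, with differences of 3.63 and 2.54, as were the urokinase gene Plau at 3.07 and the aggrecanase Adamts4 at 4.42. Timp4 was lower, at 2.91 to 15.2 in reporter-high and 31.7 to 116 in reporter-negative lungs. Timp1 and Timp3 overlapped between the sets. Of 12 genes of epithelial-mesenchymal transition, 6 were higher, among them Twist1 at 267 to 1004 in reporter-high and 5.22 to 67.7 in reporter-negative lungs, and the epithelial adhesion genes Cdh1 and Epcam were lower. With libraries at the same sum Cdh1 no longer passed.

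The 2 lists of macrophage genes had median differences of opposite sign. Of 14 monocyte and macrophage genes, 8 were higher and none lower in reporter-high lungs, with a median of 1.39, against 9.96% and 12.9% of all genes. In HBSS tumour lungs 9 of the 14 rose and 3 fell, where 36.5% of all genes rose and 41.5% fell. C1qa, a chain of the first complement component made by macrophages, was 1253, 4184 and 4617 in reporter-high lungs and 547, 1199.6, 379 and 554 in reporter-negative lungs. For C1qa the highest reporter-negative value, in WT replicate 3, was close to the lowest reporter-high value, in WT replicate 1. Of 12 genes of alveolar macrophages, the resident cells of the air spaces, none was higher and Pparg and Krt79 were lower, with a median of -1.95. Those 2 of 12 are near the 12.9% of all genes that were lower. In HBSS tumour lungs 9 of 12 fell and none rose. Of 11 genes linked to tumour-associated and suppressive myeloid cells, Msr1, Spp1, Trem2 and Gpnmb were higher and none lower, where 9.96% of all genes were higher. Spp1, the secreted phosphoprotein osteopontin, was 5473, 14711 and 25637 in reporter-high lungs and 1035, 946, 1527 and 1682 in reporter-negative lungs. Trem2, a lipid-sensing receptor, was 242, 805 and 1065 and 48.1, 119, 49.1 and 95.3 in the same order.

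Ccl2 and Ccl7, chemokines that draw monocytes, were higher in reporter-high lungs, while Ccl8 of the same family overlapped. Ccl2 was 362, 1189 and 1654 in reporter-high lungs and 27.6, 73.4, 16.7 and 55.0 in reporter-negative lungs, and Ccl7 was 161, 643 and 989 and 19.4, 71.1, 13.6 and 41.3 in the same order. HBSS tumour lungs had 683 to 4032 for Ccl2, and tumour-free lungs had 11.6 to 31.2. In all, 8 of 23 measured cytokines and chemokines were higher and none lower, against 9.96% and 12.9% of all genes. The higher ones included Cxcl1 and Cxcl9, ligands for receptors on neutrophils and T cells, and the interleukin 6 family members Il11 and Lif. None of 20 genes of the interferon response passed the threshold in either direction. Of 10 neutrophil genes only the lectin Clec4d did, at 126 to 777 in reporter-high and 40.9 to 93.4 in reporter-negative lungs. That 1 of 10 is near the 9.96% of all genes that were higher.

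Transcripts of the lung's own cells had negative median differences in the reporter-high lungs, and the spread there was wide. Of 9 genes of club and secretory cells 5 were lower, of 10 ciliated cell genes 6, of 11 alveolar type 1 genes 3, of 19 fibroblast and mural genes 7, with Lrrc15 higher, and of 23 endothelial genes 2, a share below the 12.9% of all genes. The medians were -2.60 for club cells, -2.40 for ciliated cells, -2.29 for alveolar type 1 cells, -2.13 for fibroblasts and mural cells and -2.18 for endothelium, against -0.05 over all genes. Scgb1a1, the club cell secretory protein, was 21967, 51044 and 191399 in reporter-high lungs and 351691, 232431, 341128 and 316621 in reporter-negative lungs. The difference was -1.52 among WT lungs and -3.15 among MT2 lungs. Foxj1, the master factor of motile cilia, was 119.7, 337 and 1433 and 2307, 1744, 1788 and 2499 in the same order. Ager, a receptor of alveolar type 1 cells, was 2322, 5289.6 and 19116 in reporter-high lungs and 27454, 19170.5, 27513 and 28186 in reporter-negative lungs.

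Alveolar type 2 genes had lower means in 13 of 13 cases, with a median of -1.65, yet none passed the no-overlap threshold. Sftpc, the surfactant protein that marks these cells, was 21896, 48515 and 111639 in reporter-high lungs and 170056, 107764, 195997 and 164672 in reporter-negative lungs. The reporter-high WT replicate 1, at 111639, was above the reporter-negative WT replicate 3, at 107764, and this pair made the sets overlap. All 13 fell in HBSS tumour lungs, Sftpc by -2.93 ± 0.42 SE on the log2 scale (limma adjusted p = 2.6e-06). Cdh5, the adhesion protein of endothelial junctions, overlapped in the same way, at 666 to 8307 in reporter-high and 5375 to 12027 in reporter-negative lungs, with WT replicate 1 as the highest reporter-high lung.

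Genes of B, T and cytotoxic cells included many that were lower. Of 16 B cell genes, 11 were lower with no overlap, with a median of -2.25. With libraries at the same sum 8 of the 16 were lower. On the deposited scale 9 of 23 T cell genes were lower, with a median of -1.32. So were 4 of 12 genes of natural killer and cytotoxic cells, with a median of -1.79. Of 8 MHC class II genes 1, Cd74, was lower, and the median of the list was -0.78. The MHC class II share is near the 12.9% of all genes, and with libraries at the same sum Cd74 no longer passed. Ms4a1, the B cell antigen CD20, was 31.1, 97.4 and 214 in reporter-high lungs and 427, 389, 399 and 439 in reporter-negative lungs. Gzma, the cytotoxic granule protease granzyme A, was 6.87, 70.2 and 127 in reporter-high lungs and 328, 155, 375 and 230.0 in reporter-negative lungs. Cd74, the chaperone of MHC class II, was 2686, 7612 and 11351 and 18787, 12429, 14074 and 15089 in the same order, and its highest reporter-high value came close to its lowest reporter-negative value. In HBSS tumour lungs all 16 B cell genes, 21 of 22 T cell genes, all 12 cytotoxic genes and all 8 MHC class II genes fell.

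**Figure D4:**
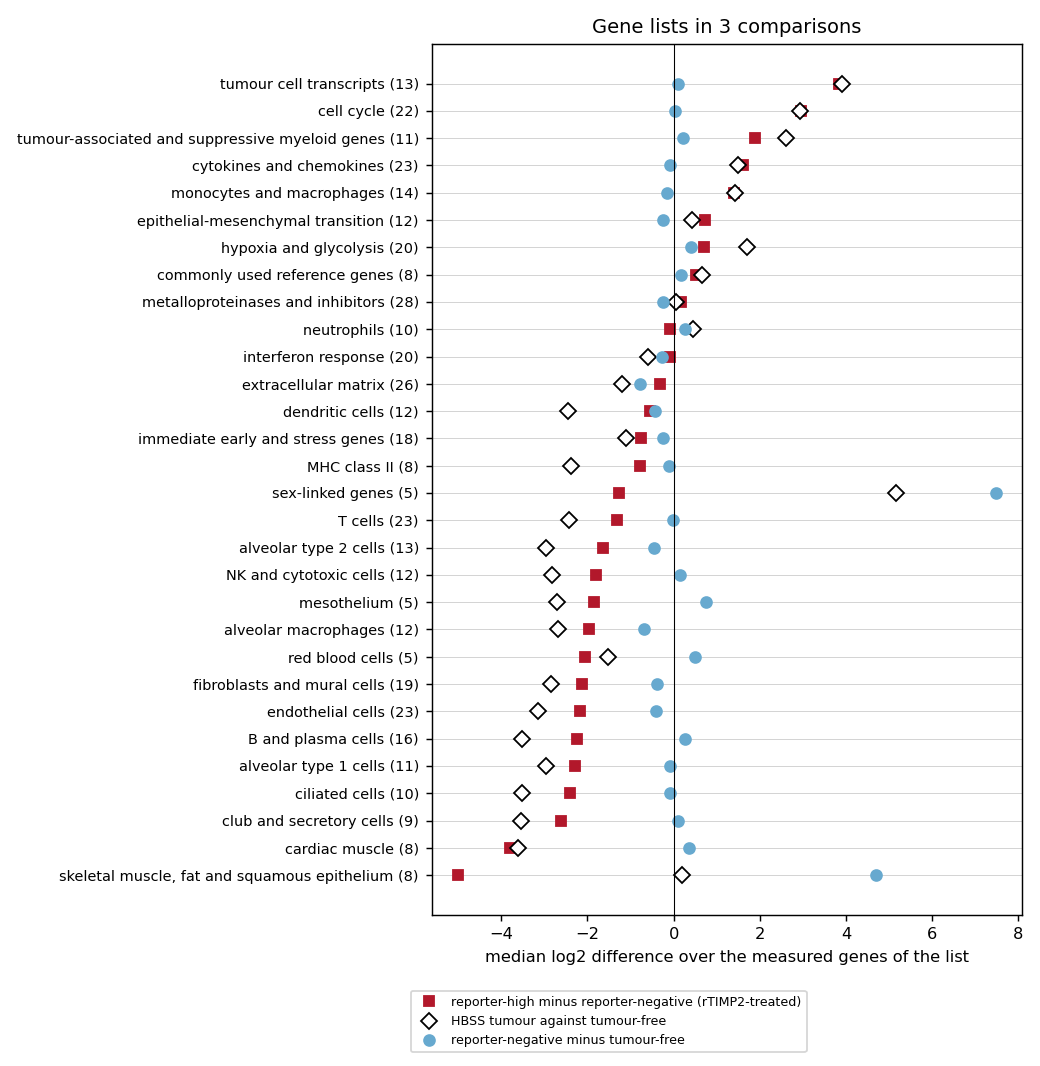
Median log2 difference over the measured genes of each list, with the number of genes measured in the treated lungs in brackets. Squares show reporter-high minus reporter-negative lungs, diamonds HBSS tumour against tumour-free lungs and circles reporter-negative minus tumour-free lungs. Tumour cell and cell cycle lists lie near 3 to 4 in the first pair of comparisons, lung cell lists lie below 0 in both, and most lists lie near 0 in the reporter-negative lungs.

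The 12 largest differences in the other direction were all genes of striated muscle or strongly expressed there: Ckm, Mylk4, Mb, Myl3, Hrc, Csrp3, Eef1a2, Ckmt2, Xirp2, Lmod2, Cmya5 and Tcap. They encode proteins of the contractile fibre, its calcium store and its energy supply, and the elongation factor Eef1a2 of muscle and neurons. Ckm, muscle creatine kinase, was 0.942, 19.0 and 171 in reporter-high lungs and 5265, 33702, 209.7 and 251 in reporter-negative lungs. Mb, myoglobin, was 3.89, 28.8 and 168 and 2854, 18256, 866 and 843 in the same order. WT replicate 3 was the highest lung for both, with WT replicate 2 next, the same lungs that carried Krt13. Without those 2 lungs all 12 genes remained past the threshold, and 6 of the 12 were still among the 12 largest. Myh6, the heart myosin that cardiac muscle of the pulmonary veins also makes, was not raised in WT replicates 2 and 3 and differed just as clearly. It was 33.4, 124 and 1252 in reporter-high lungs and 3391, 2577, 2893 and 3954 in reporter-negative lungs, where tumour-free lungs had 2007, 3898 and 5449.6. All 8 cardiac muscle genes were lower in reporter-high lungs, with a median of -3.79, and 7 of 8 fell in HBSS tumour lungs. Of the 12 largest differences, 9 were called lower in HBSS tumour lungs by the limma test, where 41.5% of all genes fell. Ckm itself did not pass the test there (log2 -0.95 ± 1.10 SE, limma adjusted p = 0.44), with HBSS lungs at 4.83 to 6047.

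A few genes separated the treated sets but not HBSS tumour from tumour-free lungs. Among genes higher in reporter-high lungs, 11 were called in the opposite direction or had a limma adjusted p over 0.5 in the HBSS test, and 18 of those lower. Fbn1, the microfibril protein fibrillin 1, was 1474, 1793 and 2234 in reporter-high lungs and 619.9, 809, 743 and 755 in reporter-negative lungs. HBSS tumour lungs had 812, 1843 and 3262 and tumour-free lungs 1656, 1774 and 2365 (log2 -0.07 ± 0.18 SE, limma adjusted p = 0.74). The reporter-negative lungs were the ones that differed from the rest, at values below every HBSS and tumour-free lung. Prdm8, a histone methyltransferase family member, had the same arrangement in part, at 57.5 to 169.6 in reporter-high lungs, 17.8 to 53.8 in reporter-negative lungs and 65.6 to 167 in tumour-free lungs. Gpr34, a receptor gene of macrophages and microglia, was 45.7 to 241 in reporter-high lungs, 24.5 to 34.4 in reporter-negative lungs, 24.1 to 128 in HBSS tumour lungs and 35.1 to 64.3 in tumour-free lungs. Tmem273, B3gnt9 and the leukocyte receptor gene Cd300a completed the 6 largest, with differences of 1.17, 1.17 and 1.11. In the other direction the 6 largest were the muscle genes Myl1 and Klhl41, the kelch gene Klhl33, the Y-linked Kdm5d, the hypoxia factor gene Hif3a and the small GTPase gene Rhov.

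The macrophage genes Cx3cr1 and Adgre1 are a related case, taken from the fixed list. Adgre1, which encodes the F4/80 antigen, was 472, 711 and 869 in reporter-high lungs and 255, 378, 209.8 and 288 in reporter-negative lungs. HBSS tumour lungs had 178, 299 and 639.5 and tumour-free lungs 294, 344 and 445 (log2 -0.19 ± 0.19 SE, limma adjusted p = 0.37). Cx3cr1, the fractalkine receptor, was 259.7 to 661 in reporter-high lungs and 70.0 to 177 in reporter-negative lungs, with 91.8 to 407 in HBSS tumour and 241 to 362 in tumour-free lungs.

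How far the 4 reporter-negative lungs matched tumour-free tissue was described with the same threshold. Of 17315 genes, 98 (0.566%) were higher and 106 (0.612%) lower in the 4 lungs than in the 10 tumour-free lungs. Without WT replicate 5 the counts were 287 and 176, without MT2 replicate 2 the higher count was 153, and without WT replicates 2 and 3 the counts were 113 and 150. Of the 98 higher genes, 26 rose and 45 fell in HBSS tumour lungs. Of the 106 lower genes, 9 rose and 82 fell there. These counts share the tumour-free lungs with the HBSS test, so their overlap is not a separate result. The largest differences were the 4 Y-linked genes, from 7.40 for Uty to 8.51 for Ddx3y, and Xist at -6.10. The tumour-free lungs also differ from the treated ones in their range of sample numbers, and cohort, treatment and sex-linked expression cannot be told apart in this comparison.

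Matrix genes were among those lower in the reporter-negative lungs, with 8 of 26 past the threshold and none higher, against 0.612% of all genes. They were Eln, Fbn1, Tnc, Loxl1, Col1a1, Col4a1, Col5a1 and Col6a3. Eln was 862, 778, 1072 and 899 in reporter-negative lungs and 2194, 3209 and 5597 in tumour-free lungs. Col1a1, the main chain of type I collagen, was 1717, 2275, 1868 and 1852 in reporter-negative lungs and 4311, 6328 and 8519 in tumour-free lungs. Loxl1, an enzyme that crosslinks elastin, was 729, 839, 851 and 966 in reporter-negative lungs and 2054, 2521 and 3229 in tumour-free lungs. The reporter-high lungs, at 575 to 1581 for Eln and 402 to 2553 for Col1a1, and the HBSS tumour lungs, at 359.5 to 2465 and 291 to 3991, overlapped with the reporter-negative lungs for both genes. Tnc, the matrix protein tenascin C, was above all tumour-free lungs in the reporter-high lungs, at 661 to 1349, and below all of them in the reporter-negative lungs, at 80.6 to 134, where tumour-free lungs had 255 to 572.

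Ccr3, Siglecf and Aplnr were lower as well, and Ccr3 was chosen after its values were seen. Ccr3, a chemokine receptor of eosinophils, was 5.11, 10.3, 2.09 and 10.8 in reporter-negative lungs and 21.4, 45.4 and 65.3 in tumour-free lungs. Siglecf, a lectin of eosinophils and alveolar macrophages, was 135, 78.0, 104 and 119.9 and 218, 266 and 307 in the same order. Aplnr, the apelin receptor of capillary endothelium, was 469.5, 325, 620.1 and 270.3 in reporter-negative lungs and 976, 1245 and 1540.1 in tumour-free lungs. Of the lists of lung and immune cells, alveolar macrophages and fibroblasts and mural cells had 2 lower genes each, and alveolar type 2 cells, endothelium, monocytes and macrophages, tumour-associated myeloid cells and neutrophils had 1 each. The B, T, cytotoxic, club, ciliated and type 1 cell lists had none past the threshold, where 0.566% of all genes were higher and 0.612% lower, so that counts of 0 are near the background.

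Genes of the circadian clock, a list chosen after values were seen, moved in opposite directions. Of 18 such genes, 8 were higher and 2 lower in reporter-negative than in tumour-free lungs, against 0.566% and 0.612% of all genes. Per2, a repressor of the clock, was 1965, 1405, 1237 and 1678 in reporter-negative lungs and 239, 327 and 541 in tumour-free lungs. Arntl, which encodes the activator BMAL1, was 53.2, 45.9, 32.4 and 62.9 in reporter-negative lungs and 111, 161 and 246 in tumour-free lungs. By the limma test, 4 of these 18 genes rose and 10 fell in HBSS tumour lungs, measured against the same tumour-free lungs. Of all genes, 36.5% rose and 41.5% fell in that test. Between the treated sets, 1 clock gene was higher and 7 lower in reporter-high lungs, against 9.96% and 12.9% of all genes. Arntl was the higher one, at 82.2, 180.2 and 254 in reporter-high lungs. Dbp, a clock output factor, was 158, 345 and 2068 in reporter-high lungs and 3053, 2876, 3231 and 3169 in reporter-negative lungs. Within the reporter-high set WT replicate 1, at 2068, was nearest to the reporter-negative lungs, and it was also nearest for Per2, at 1396 where the other 5 were 185 to 272. None of the 17 clock genes measured in reporter-high and HBSS tumour lungs passed the threshold between those sets, where 0.00596% of all genes were higher and 0.0238% lower. The hour of collection is not given in the labels, and its part was not tested.

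Few genes separated the 6 reporter-high lungs, 2 WT and 4 MT2, from the 10 HBSS tumour lungs. Of 16789 genes, 1 (0.00596%) was higher and 4 (0.0238%) were lower with no overlap and a mean difference of at least 1. Without MT2 replicate 5 the counts were 13 and 15, and without WT replicate 1 they were 4 and 7. Without MT2 replicate 1, 3 or 4 the higher count was 2, 2 or 3, and without MT2 replicate 4 the lower count was 7. Within genotypes the groups are smaller and overlap less often by construction, and 123 genes were higher and 301 lower among WT lungs and 144 and 62 among MT2 lungs. The lung cell lists leaned upward without passing the threshold, with medians of 0.79 for alveolar type 2 cells, 1.25 for club cells, 1.53 for B cells and 1.44 for MHC class II, against 0.04 over all genes. Ms4a1 was 31.1, 97.4 and 214 in reporter-high lungs and 0.966, 10.4 and 187 in HBSS tumour lungs, and the groups overlapped.

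The gene that was higher was Itgae, the integrin chain CD103 of tissue-resident T cells and a subset of dendritic cells. It was 47.1, 56.6 and 64.9 in reporter-high lungs and 8.17, 10.7 and 29.3 in HBSS tumour lungs. The reporter-negative lungs had 69.6, 37.8, 65.8 and 71.8, and the tumour-free lungs 80.9, 104 and 114. All 10 treated lungs thus lay between the HBSS tumour lungs and the tumour-free lungs, whether or not they held reporter RNA. Itgae is the only one of the 12 dendritic cell genes past the threshold. Xcr1, a receptor of the same dendritic cells, was 15.7 to 30.2 in reporter-high lungs and 0 to 24.1 in HBSS tumour lungs, and overlapped.

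The 4 lower genes were the metallothioneins Mt1 and Mt2, the kelch gene Klhl33 and the vitamin D hydroxylase gene Cyp27b1. Metallothioneins are small proteins that bind zinc and copper, and their genes respond to metals, glucocorticoids and stress. The gene Mt2 is not the genotype MT2. Mt1 was 584, 1399 and 1570.4 in reporter-high lungs and 2128, 3391 and 6014 in HBSS tumour lungs. Reporter-negative lungs had 752, 1182, 507 and 754 and tumour-free lungs 279.7, 377 and 483. Mt2 was 216, 717 and 947 in reporter-high lungs and 1074, 2419 and 5003 in HBSS tumour lungs, with 261, 679, 144 and 278 in reporter-negative and 53.3, 76.3 and 90.2 in tumour-free lungs. For both genes each of the 10 treated lungs lay below all HBSS tumour lungs and above all tumour-free lungs, and the reporter-high and reporter-negative lungs overlapped. Both genes rose in HBSS tumour lungs (Mt1 log2 3.14 ± 0.15 SE, limma adjusted p = 4.2e-13; Mt2 log2 4.94 ± 0.21 SE, adjusted p = 7.3e-14). Slc30a1, a zinc exporter controlled by the same metal sensor, did not follow them, at 100.0 to 1065 in reporter-high and 118 to 639 in HBSS tumour lungs. Cyp27b1 was at 3.77 to 9.21 in reporter-high and 9.66 to 16.3 in HBSS tumour lungs, a difference of a few reads. Klhl33 was 4.86 to 19.6 in reporter-high and 19.7 to 89.7 in HBSS tumour lungs, so that the groups nearly met.

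The promoters of the 2 metallothionein genes, which lie next to each other on chromosome 8, are shown because both genes separated the treated from the HBSS tumour lungs. The windows run from 250 bases before to 50 after the RefSeq start in build GRCm38.p6, both on the plus strand, at chr8:94178839-94179138 for Mt1 and chr8:94172368-94172667 for Mt2. Capitals mark the core of the metal response element, TGCGCNC or TGCACNC, on either strand.
Mt1: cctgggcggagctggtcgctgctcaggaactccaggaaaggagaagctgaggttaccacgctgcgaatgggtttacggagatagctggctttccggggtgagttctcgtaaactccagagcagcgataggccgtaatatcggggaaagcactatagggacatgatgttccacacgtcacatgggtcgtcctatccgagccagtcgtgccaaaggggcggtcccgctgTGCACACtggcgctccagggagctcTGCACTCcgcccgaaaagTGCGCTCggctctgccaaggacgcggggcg
Mt2: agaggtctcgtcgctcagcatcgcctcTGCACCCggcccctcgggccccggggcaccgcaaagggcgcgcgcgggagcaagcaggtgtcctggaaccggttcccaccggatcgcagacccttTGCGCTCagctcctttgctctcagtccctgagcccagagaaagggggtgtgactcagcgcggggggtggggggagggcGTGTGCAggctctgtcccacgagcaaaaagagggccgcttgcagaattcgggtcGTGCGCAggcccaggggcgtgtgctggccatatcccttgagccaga
The Mt1 window held 3 separate matches and the Mt2 window 4. Of 32851 promoter windows of the same length, 1.31% held 3 or more and 0.295% held 4 or more. A match describes the letters of the window and not binding.

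**Figure D5:**
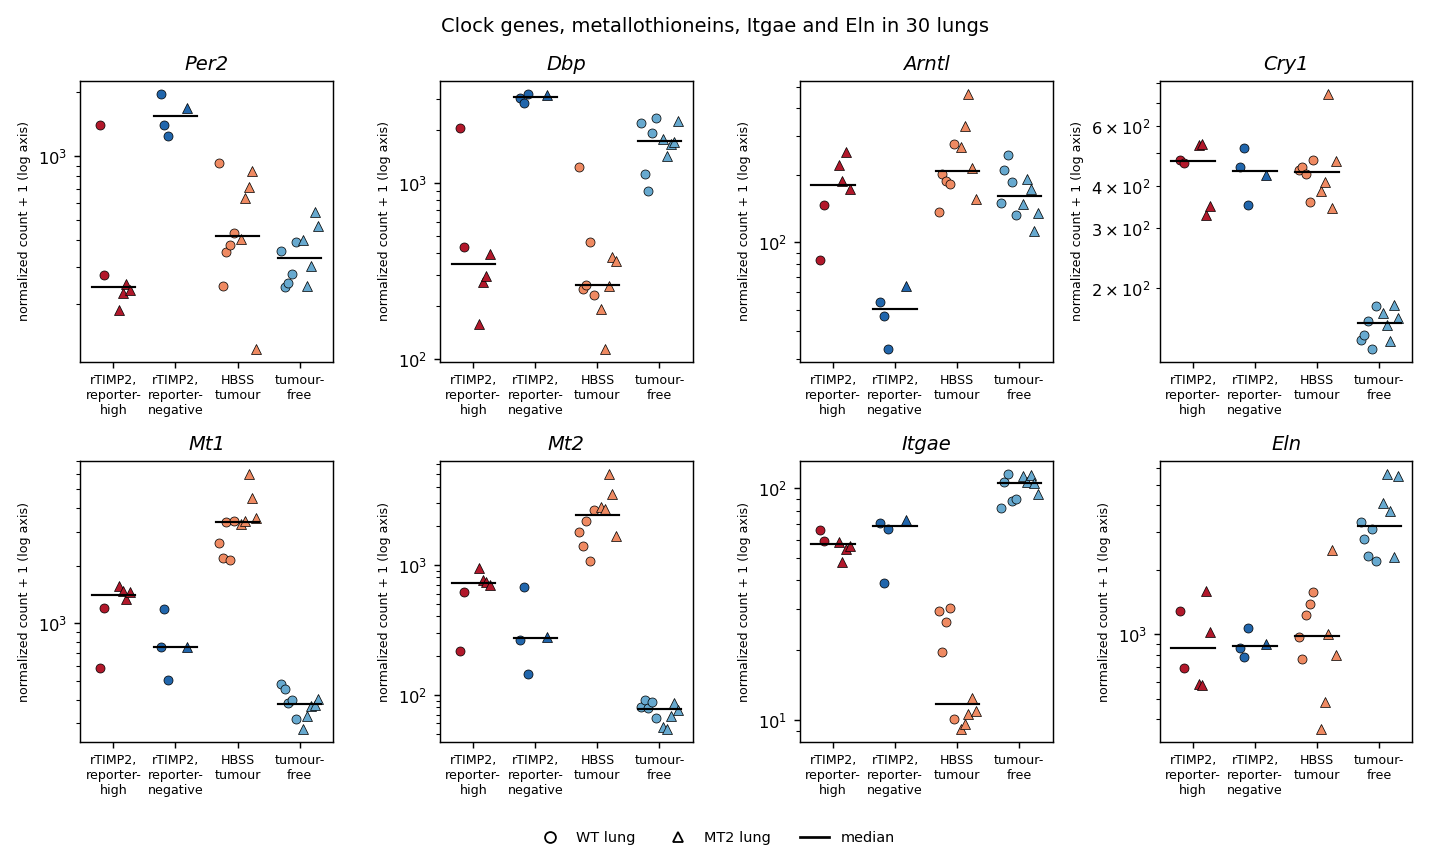
Normalized count plus 1 on a log axis for 4 clock genes, the metallothioneins Mt1 and Mt2, Itgae and Eln in each of 30 lungs, with circles for WT, triangles for MT2 and a line at the median. For Mt1, Mt2 and Itgae all 10 treated lungs lie between the HBSS tumour and tumour-free lungs, and for Per2 and Arntl the 4 reporter-negative lungs lie apart from the tumour-free lungs.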

How the data were processed

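RNA was sequenced from lung pieces, and the authors deposited a table of normalized counts, a normalized signal per gene and library (26940 genes, 17627 protein coding). The tools named are STAR, Bowtie2, DESeq2 and Partek, with build mm10, per the submitters' processing notes. Their roles, versions and counting strand were not given in the sources used here. In each library 78.2 to 84.1% of low values fell on whole multiples of 1 step (within 0.02 of a step, up to 20 steps), too few to recover reads, so the deposited signal was used and no count model was fitted. Depth was estimated from this step, and the top 10 genes held 4.67 to 8.43% of each total. No pair of libraries shared more than 2 identical values above 10.

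Groups came from the titles, because the treatment field counts upward from sample to sample. HBSS tumour and tumour-free lungs (10 each) were compared on log2(value + 1) with limma 3.58.1 in R 4.3.3 (trend and robust options, genotype as covariate), for genes at 10 or more in at least 10 lungs, and called at 0.05 after Benjamini-Hochberg adjustment over every gene tested. The script was tested on simulated data. P-values measure the spread between these samples, part of which may be technical, since the labels do not say that each is a separate mouse. Comparisons that involve the reporter-high or reporter-negative lungs carry no test: a gene counted when the groups did not overlap and mean log2 values differed by 1 or more. Each such comparison needed a value of 10 or more in as many lungs as its smaller group has.

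Members and gene lists were chosen with earlier results of these data known. Named genes were Luc, Hmga2 and Timp2, the 12 largest differences in each direction between the sets, the 6 largest in each direction for the other comparisons and for genes that went against the HBSS test (protein coding, no numbered gene models, higher group's mean at least 50), and listed genes. Clock genes, Hsph1, Ccr3, Slc30a1, Cyp27b1 and Klhl33 were chosen after their values were seen. Promoter sequences are from RefSeq. Alternatives covered scaling, pseudocount, filter, threshold, genotype and single lungs. The subcutaneous samples were not used here.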

Additional observations from a re-analysis of the deposited data

Results flagged for a closer look

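For 52 values, each set of treated lungs was searched for a lung far from the others of its set by Dixon's test, in 104 groups. It marked 25. This number cannot be set against a chance rate. Luc chose the sets and is among the values, and many of the genes were named for large differences in these same lungs. Genes of 1 tissue also move together, and a lone value among zeros is always marked. No cause was tested.

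In the reporter-negative set WT replicate 3 stood apart for striated muscle genes. It had 33702 for Ckm (others 210 to 5265), 18256 for Mb (843 to 2854), 1498 for Hrc (121 to 275), 4960 for Eef1a2 (163 to 982), 2715 for Ckmt2 (185 to 196), 5542 for Xirp2 (61.9 to 768), 5086 for Cmya5 (209 to 890), 10608 for Tcap (547 to 1879), 3633 for Myl1 (15.7 to 451) and 591 for Klhl33 (25.6 to 109). The same lung had 447 for Abcb4, a phospholipid transporter of liver and muscle, against 13.6 to 45.0 in the others.

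In the reporter-high set WT replicate 1 stood apart in both directions. It was the lowest lung for the homeobox genes Rhox2g (127, others 359 to 480), Rhox5 (874, others 2335 to 2802) and Rhox2d (145, others 366 to 417). It was the highest for Mylk4 (28.4, others 0 to 2.05), Hrc (35.5, others 0 to 11.4), Cmya5 (127, others 0.971 to 30.4), the Y-linked Kdm5d (247, others 66.9 to 97.1), Ccnjl (27.4, others 0 to 6.14) and Adamts17 (28.4, others 2.83 to 12.3). For Ckm the highest reporter-high lung was WT replicate 4, at 171, against 0.942 to 63.9.

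The remaining values were at the level of single reads in the reporter-negative set. MT2 replicate 2 had 0.983 for Luc and 1.97 for Lhx9, where the others were at 0, and 12.3 for the summed Fosl1 and Rhox2d, where the others had 9.51 to 9.82. WT replicate 5 was at 0 for Plac1, where the others had 0.983 to 1.15.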

How the results depend on the processing

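Lungs left out in turn gave 1653 to 2870 genes higher and 2186 to 4044 lower between reporter-high and reporter-negative lungs. For reporter-negative against tumour-free lungs they gave 89 to 287 and 104 to 176, for reporter-high against HBSS tumour lungs 1 to 13 and 4 to 15, and for the HBSS test 6052 to 6433 and 6892 to 7277. Shares of the lists called in the same direction in the HBSS test were 90.7 to 94.6% for higher and 90.5 to 94.5% for lower genes. Replicate numbers were only names (r of -0.18 to 0.12 between same-numbered lungs), and with a replicate block the HBSS test called 6020 higher and 6885 lower. Scaling to equal sums or upper quartiles, which changed the balance of higher and lower genes between the sets (equal sums), kept the counts within 1.5 times, and moved the lower share to 91.8% (equal sums).

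A log2 threshold of 2 gave 650 and 1255 between the sets (higher share 90.3%), 13 and 6 for reporter-negative lungs, and 0 and 0 for reporter-high lungs. For reporter-high against HBSS lungs no filter gave 4 higher, and a minimum of 50 gave 0 and 2. No filter moved the shares to 96.9 and 90.8%, and a minimum of 50 the higher share to 90.2%. In MT2 lungs only, 3586 and 4833 genes separated the sets (shares 83.3 and 87.3%), and 144 and 62 separated reporter-high from HBSS lungs. In WT lungs only, these were 123 and 301, the lower share was 81.3%, and 224 genes were higher in reporter-negative lungs. Timp2 turned positive between HBSS tumour and tumour-free MT2 lungs (log2 0.49, limma adjusted p = 0.029). With fewer lungs a group overlaps less often by construction.

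Chosen after seeing the data were the 19-transcript list, which put the reporter-negative median at 1.61% of the HBSS median instead of 0.836%, the position scale, and leaving out WT replicates 2 and 3, which gave 2655 and 3619 genes (higher share 89.3%). A limit of 500 and 2 for tumour transcripts left 0 genes and gave no value. Single reads limit what a reporter value near 0 can show.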

Other observations

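Chaperone transcripts varied inside both sets. Hsph1, a heat shock protein of the HSP110 family, was 701, 1613 and 3815 in reporter-high lungs (lowest, median and highest) and 3117, 3703, 1314 and 3926 in reporter-negative lungs (WT replicates 2, 3 and 5, MT2 replicate 2). It was 563, 869.9 and 4626 in HBSS tumour lungs and 431, 741 and 1102 in tumour-free lungs, and all 4 reporter-negative lungs were above every tumour-free lung. Hspa1a, the inducible HSP70, whose near-identical copy makes its own value uncertain, was 4153 in the reporter-high WT replicate 1 and 83.0 to 387 in the other 5. It was 3792, 6209, 189 and 7569 in reporter-negative lungs and 483 to 4432 in tumour-free lungs.

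Red cell transcripts were among those lower with the reporter. Hbb-bt, a chain of adult haemoglobin, was 840.0, 3634 and 7212 in reporter-high lungs and 11422, 8965, 12618 and 10629 in reporter-negative lungs, with 4387, 6562 and 15459 in tumour-free lungs. The immunoglobulin heavy chain gene Ighm overlapped, at 201 to 2127 in reporter-high lungs and 3208, 7784, 2286 and 1732 in reporter-negative lungs, and WT replicate 3 had the highest value of all 4. Ccl8, a monocyte chemokine, was 36.5 to 326 in reporter-high lungs and 34.8, 128, 27.1 and 43.2 in reporter-negative lungs, each of them above every tumour-free lung, at 8.62 to 25.3.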
